A study of Homo sapiens with 2 samples.

Results

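Promoter-class peaks within 1 kb after start are the stretches of RNA signal that lie on a transcription start site or begin within the next 1000 bp of the gene. They were taken from a deposited list of peaks of a CRTC2 RNA immunoprecipitation (RIP-seq) as the peaks of the list's promoter class whose distance to the nearest start was 0 to 1000 bp, that were at most 10 kb wide and that lay on assembled nuclear chromosomes. The rule used no fold, p or depth, and it found 13578 of 175546 peaks (7.73%). They belonged to 9684 genes, 50.2% of the 19297 genes with any peak in the list. A distance of 0 means that the peak covers the start itself, and other distances run from the start to the nearest edge of the peak. The class name describes position only: the material was RNA, and a peak just after a start lies on the first bases of a transcript.

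The CRTC2 RIP library held RNA that came down with CRTC2, and the input library held RNA of the same kind of cells without precipitation. Both came from HCCLM3, an established human hepatocellular carcinoma line with the WT genotype and no treatment named in the labels. There was 1 RIP library and 1 input library, and no precipitation with a control antibody was among the samples analysed here. The study asked which transcripts CRTC2 associates with, in work on condensates that it forms with YTHDF2 on N6-methyladenosine (m6A) modified mRNA.

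CRTC2 is a coactivator of CREB, the transcription factor that binds the cAMP response element in promoters. YTHDF2 reads m6A in the cytoplasm and is best known for directing mRNAs to decay, and m6A in mRNA is known mainly from long internal exons and the region of the stop codon. The first bases after a start form the capped 5′ end of the mRNA, where translation initiation factors assemble and where ribosomal protein mRNAs carry the terminal oligopyrimidine tract that growth signals act on.

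The sequences around the start are shown here for called peaks of highest fold, because they show where a peak sits against the start. They are at most 1 kb wide and reach into the RefSeq window of their start, and the duplicated BOLA2 locus was left out. A called peak is one at a q of at most 0.05, and fold is the authors' ratio of RIP over input at the peak's summit. Each stretch runs from 30 bases before the start to 30 bases from it, so that the start is base 31 of 60. The sequences are from RefSeq on GRCh38.p14, they are written 5′ to 3′ along the gene, and capitals mark the bases that the peak covers.
MYPOP, chr19:45902584-45902643, minus strand: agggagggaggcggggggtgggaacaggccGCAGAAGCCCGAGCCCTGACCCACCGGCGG
DIAPH2, chrX:96684812-96684871, plus strand: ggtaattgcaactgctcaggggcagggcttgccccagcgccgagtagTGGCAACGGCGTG
YJU2, chr19:4247050-4247109, plus strand: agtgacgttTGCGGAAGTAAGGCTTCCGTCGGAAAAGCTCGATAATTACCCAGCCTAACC
BLOC1S2, chr10:100286651-100286710, minus strand: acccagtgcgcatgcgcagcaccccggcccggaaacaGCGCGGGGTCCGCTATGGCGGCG
KIFC1, chr6:33391793-33391852, plus strand: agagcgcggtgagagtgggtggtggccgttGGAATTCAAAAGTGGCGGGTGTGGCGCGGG
GTF2A1, chr14:81220930-81220989, minus strand: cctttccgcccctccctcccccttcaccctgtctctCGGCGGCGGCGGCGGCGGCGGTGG
The same stretch is shown for 4 called ribosomal protein peaks.
RPL3, chr22:39319594-39319653, minus strand: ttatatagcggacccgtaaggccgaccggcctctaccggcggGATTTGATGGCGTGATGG
RPLP0, chr12:120201082-120201141, minus strand: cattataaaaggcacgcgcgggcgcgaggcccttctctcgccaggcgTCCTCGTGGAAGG
RPL27A, chr11:8682762-8682821, plus strand: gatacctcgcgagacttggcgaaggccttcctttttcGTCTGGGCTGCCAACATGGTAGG
RPL35, chr9:124861928-124861987, minus strand: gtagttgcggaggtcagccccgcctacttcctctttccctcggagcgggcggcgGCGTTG
In MYPOP and KIFC1 the peak covered the 30 bases from the start onward and none before it. The YJU2 peak reached upstream and covered 51 of the 60 bases. In the other peaks shown the signal began 6 to 24 bp after the start.

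Peaks after starts were crowded at the 5′ end. Of the 13578 peaks, 2146 covered the start (15.8%, exact Clopper-Pearson 95% interval 15.2 to 16.4) and 4593 more began 1 to 100 bp after it (33.8%). Together these were 6739 peaks, 49.6% (48.8 to 50.5) of all within 1 kb. Within the range from 1 to 100 bp the median distance was 32 bp (quartiles 19 and 56), and the fullest interval of 10 bp ran from 21 to 30 bp with 962 peaks. Only 377 promoter-class peaks lay in the 100 bp before a start. From 901 to 1000 bp there were 541 peaks, and 487 from 1001 to 1100 bp. The summits followed the edges: 12142 of the peaks (89.4%) had theirs 0 to 1000 bp after the start, 580 had it upstream and 856 beyond 1000 bp.

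**Figure D1:**
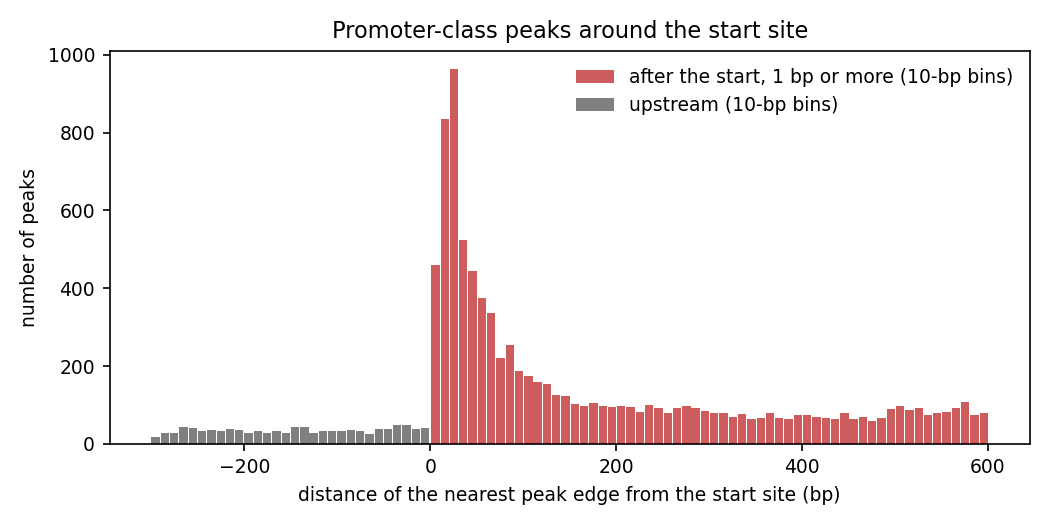
Number of promoter-class peaks (y axis) against the distance of the nearest peak edge from the start site in bp (x axis), in bins of 10 bp; the 2146 peaks that cover the start (distance 0) are not drawn. Upstream bins hold at most 48 peaks each, and the bin from 21 to 30 bp after the start holds 962.

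The depth under the peaks changed with position. The number of RIP fragments at a summit, recovered from the deposited fold and p, had a median of 6 in peaks 1 to 100 bp after the start, 4 from 101 to 200 bp and 2 from 501 bp onward. The input level, in the scale of the peak caller where 1 input fragment counts as 0.634, had a median of 1.90 from 1 to 100 bp and 0.267 from 901 to 1000 bp. Peaks resting on 1 RIP fragment made up 9.23% of those 1 to 100 bp after the start and 47.0% of those from 901 to 1000 bp. The median fold lay between 1.84 and 1.94 in all 11 distance classes. Peaks on 1 fragment had folds between 1.48 and 1.94, a range set by the pseudocount and by the limit on p in the list, so the medians say little of how enrichment varied with position. The median input level, like the median of RIP fragments, was thus highest from 1 to 100 bp after the start.

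**Figure D2:**
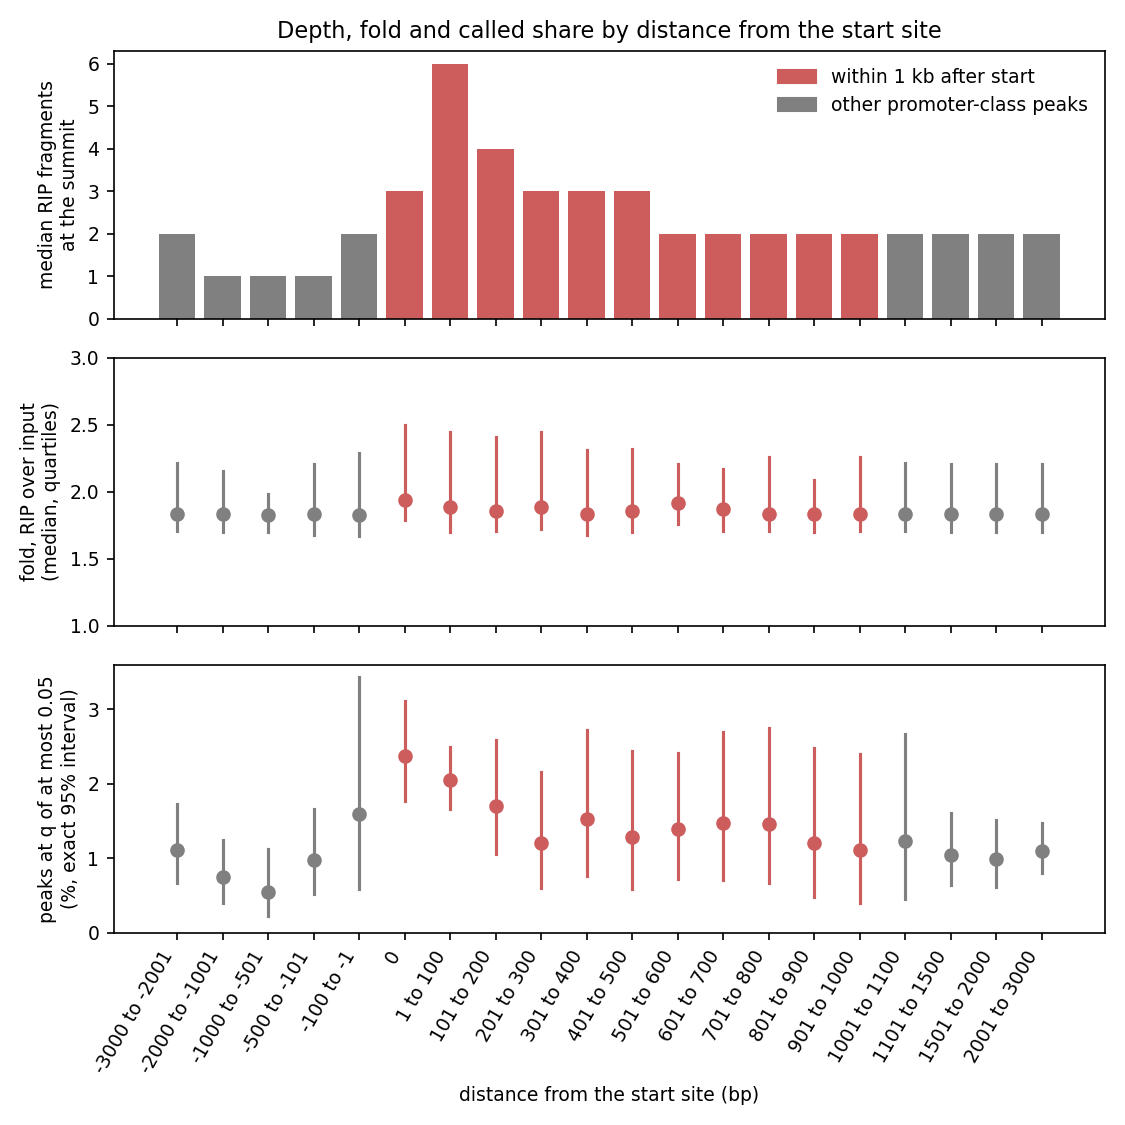
Promoter-class peaks by distance from the start site in bp (x axis): median RIP fragments at the summit (top), fold of RIP over input as median with quartiles (middle, axis from 1) and share of peaks at a q of at most 0.05 with its exact 95% interval (bottom). The median of RIP fragments is highest at 6, from 1 to 100 bp, while median folds within 1 kb lie between 1.84 and 1.94.

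Over all 13578 peaks the median fold was 1.89 (quartiles 1.72 and 2.43, at most 29.1) and the median number of RIP fragments was 3 (quartiles 1 and 8, at most 49). The median width was 119 bp. There were 3555 peaks on 1 RIP fragment (26.2%). Called peaks numbered 241 in 236 genes, or 1.77% (1.56 to 2.01). The background was 1.63% over the whole list and 1.49% over the 158595 peaks of at most 10 kb on assembled chromosomes. With at least 5 RIP fragments the share was 3.03% after starts, against 3.72% over the whole list and 3.52% over the peaks of at most 10 kb, so the order turned with depth. Of genes with such a peak, 2.44% had a called one. A fold of at least 4 was reached by 291 peaks (2.14%), against 1.63% of the whole list.

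The share called was compared with that of the neighbouring promoter-class peaks. Peaks 1 to 3 kb after starts were called in 91 of 8511 cases (1.07%), 0.71 percentage points fewer (Newcombe 95% interval of the difference 0.39 to 1.01). Peaks upstream of starts were called in 59 of 6580 cases (0.897%), a difference of 0.88 points (0.55 to 1.19). Peaks within 1 kb also rested on more RNA, since 46.6% of peaks 1 to 3 kb after starts and 51.3% of upstream peaks had 1 RIP fragment. No peak on 1 fragment could be called, since even at the input floor its −log10 q was 0. Among peaks with at least 5 RIP fragments the shares were 3.03% (173 of 5715) within 1 kb, 2.92% (66 of 2259) at 1 to 3 kb and 2.55% (38 of 1491) upstream. The differences at that depth were 0.11 points (-0.78 to 0.89) and 0.48 points (-0.54 to 1.31), and both intervals include 0. These intervals cover counting error only, and without a second library no spread between replicates is known.

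Peaks in the list's 5′ UTR class, which lie further than 3 kb from the nearest start, were called more often. Their share was 2.83% (92 of 3253), which puts the peaks within 1 kb 1.05 points below them (difference -1.05, interval -1.71 to -0.49). With at least 5 RIP fragments the shares were 3.03% within 1 kb and 4.37% (51 of 1166) in that class, a difference of -1.35 points (-2.74 to -0.21). The interval of this difference excludes 0 at either depth, but a limit of 5 fragments does not match depth. On 5 to 9 fragments the shares were 3.49% within 1 kb and 5.06% in the 5′ UTR class. They were 2.19% and 2.50% on 10 to 19, and 3.23% and 1.85% on 20 to 30. Exon-class peaks were also called in 2.83% of cases.

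**Figure D3:**
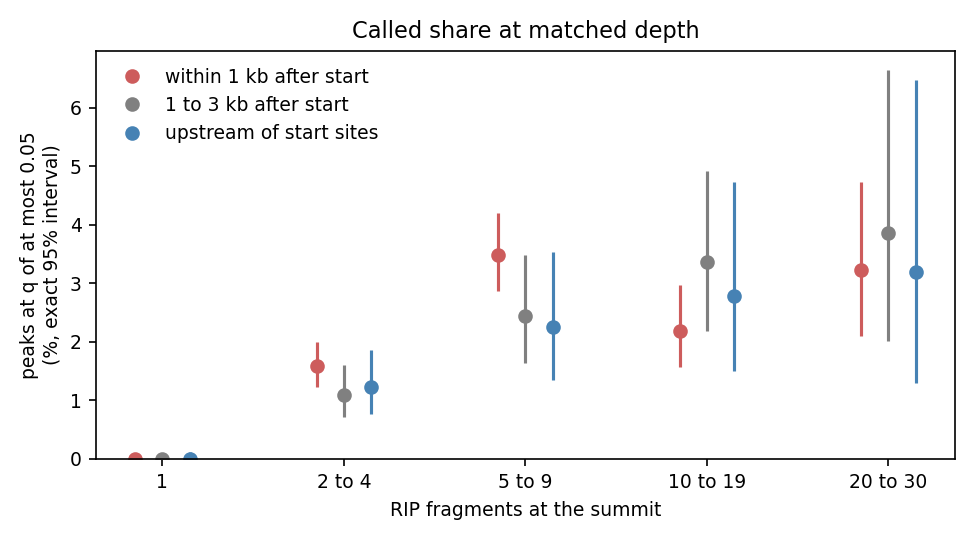
Share of peaks at a q of at most 0.05 in percent, with exact 95% intervals (y axis), by the number of RIP fragments at the summit (x axis), for promoter-class peaks within 1 kb after start, 1 to 3 kb after start and upstream. No peak on 1 fragment could be called, and the intervals of the groups overlap in every depth class drawn.

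The fold also varied with depth. Peaks on 2 to 4 RIP fragments had a median fold of 2.32 and peaks on 20 to 30 fragments one of 1.61. At least 20 fragments lay under 823 peaks and at least 30 under 84, and more than 31 under 21. Over the whole list only 51 of 175546 peaks had more than 31 fragments, and the narrowest peaks were 31 bp wide. Whether a limit on depth held down the counts and folds of abundant RNAs in either library was not tested. The deepest included RNA polymerase III transcripts and abundant mRNAs. RN7SL1, an RNA of the signal recognition particle, had 49 RIP fragments against an input level of 27.2 (fold 1.77, exact Poisson 95% interval 1.32 to 2.33). RN7SL2, its near-identical copy, had 46 against 24.1 (1.87, 1.38 to 2.49). The 7SK RNA gene RN7SK, whose product holds back the elongation factor P-TEFb, had 33 against 20.9 (1.55), and RPPH1, the RNA of RNase P, 33 against 19.6 (1.65). The ferritin genes FTL and FTH1, which store iron, had 34 against 19.6 (1.70) and 33 against 21.5 (1.51). The peaks assigned to TMPO-AS1 and SNORD42B had 34 RIP fragments each, with summits inside TMPO and RPL23A on peaks without strand. PTGES3, a co-chaperone of HSP90, had 33, and RNA28SN2 had 32. None of these 10 peaks was called, and reads of the near-identical RN7SL and ribosomal RNA copies are of uncertain origin.

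The called peaks had a median fold of 4.71 (quartiles 4.08 and 5.24, from 2.55 to 29.1) on a median of 7 RIP fragments, from 3 to 31. Of the 241, 145 (60.2%) covered the start or began within 100 bp of it, and 68 rested on 3 or 4 fragments. In 54 the summit lay inside another annotated gene.

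The peak of highest fold was FAM53A, with 29 RIP fragments against the input floor of 0.0298, a fold of 29.1 (19.8 to 41.4). It was 3763 bp wide (hg38 chromosome 4, 1684264 to 1688026), and its summit lay before the start that it overlaps, at position -2036 bp. Its fold is thus a value at that upstream position and not at the first bases of the transcript. WEE1, the kinase that restrains entry into mitosis, had 12 RIP fragments against an input level of 0.550 (8.39, 4.65 to 14.2) in a peak over its start, with the summit 123 bp into the gene. MYPOP, a MYB-related repressor gene, had 7 fragments against 0.0982 (7.28, 3.47 to 14.04), with the summit 24 bp into the gene. TADA2B, an adaptor subunit of the SAGA acetyltransferase complex, had 8 against 0.275 (7.06, 3.49 to 13.1), 410 bp into the gene. That TADA2B summit also lay inside another annotated gene, LOC100129931, on a peak without strand. RNU2-1, the U2 RNA of the spliceosome, had 15 against 1.27 (7.06, 4.14 to 11.4), and it stands in a cluster of near-identical copies.

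Several of the highest folds stood on repeated or nested sequence. RNA18SN3, an identifier of the 18S ribosomal RNA gene that the list places at several sites of chromosome 21, had 30 RIP fragments against 1.28 at position 8393003 (13.6, 9.33 to 19.2) and 12 against 1.57 at position 8210033 (5.06), which are different copies. BOLA2-SMG1P6, a readthrough locus in a duplicated segment of chromosome 16, had 19 against 0.634 (12.2, 7.61 to 18.8) and 16 against 0.786 (9.52). YWHAEP1, a pseudogene of the 14-3-3 gene YWHAE, had 7 against 0.0786 (7.42, 3.54 to 14.3). Where copies are near-identical the origin of the reads is uncertain. SNORD73A, an RNA that guides ribosomal RNA methylation, had 22 against 2.26 (7.06, 4.54 to 10.5), but its summit lay past the end of that short gene and inside its host, the ribosomal protein gene RPS3A. Ranking by q instead of fold added PDE7A, a phosphodiesterase that breaks down cAMP, with 5 against 0.0298 (5.83, 2.55 to 12.3).

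**Figure D4:**
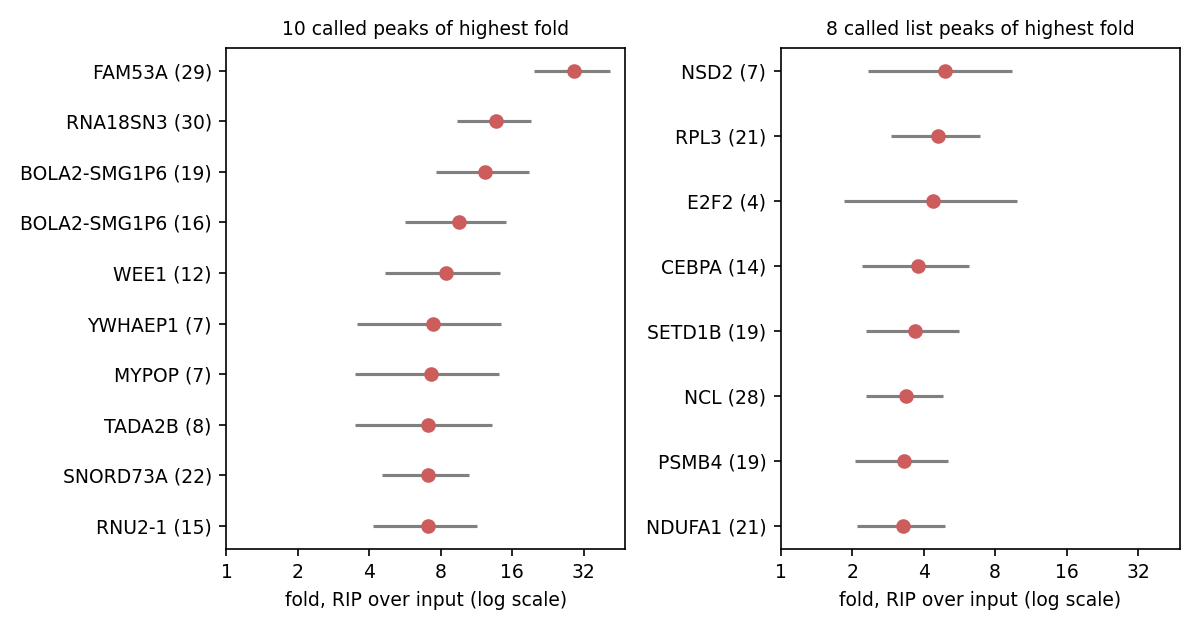
Fold of RIP over input on a log scale with exact Poisson 95% intervals (x axis) for the 10 called peaks of highest fold (left) and for the 8 called peaks of highest fold in the gene lists (right); the number of RIP fragments at the summit stands in brackets. FAM53A lies at 29.1 and no called list peak lies above NSD2 at 4.90.

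More than 1 called peak was assigned to 5 gene identifiers, a group picked out after the values were seen. Beside RNA18SN3, whose called peaks lie on different copies, and BOLA2-SMG1P6 these were DICER1, NFKBIA and TTF2. DICER1, the nuclease that cuts microRNA precursors, had 8 RIP fragments against 0.354 in a peak 130 bp after a start (6.65, 3.29 to 12.4) and 6 against 0.236 in a peak 853 bp after another (5.66, 2.59 to 11.4). NFKBIA, the inhibitor that holds NF-kappaB in the cytoplasm, had 24 against 6.97 in a peak 4 bp after the start (3.14, 2.05 to 4.61) and 20 against 4.44 at 969 bp (3.86, 2.43 to 5.87). TTF2, a transcription termination factor, had 4 against 0.157 in a peak 42 bp after the start (4.32) and 3 against 0.0393 in another (3.85). The latter TTF2 peak began 636 bp after the start and was 9045 bp wide. Its summit lay at 2112 bp, beyond the 1 kb range, at an input level near the floor of 0.0298.

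Most genes had a single such peak: 6539 of 9684 (67.5%) had 1, 2554 had 2, 481 had 3 and 110 had 4 or more. The genes with the most had peaks assigned to several of their start sites. PLEC, the cytoskeletal linker plectin, had 11, with folds from 1.59 to 3.06. SEPTIN9, CFLAR, DST and GRB10 had 7 each; SEPTIN9 encodes a filament-forming septin, CFLAR an inhibitor of caspase-8, DST the linker dystonin and GRB10 a receptor adaptor. None of the peaks of these 5 genes was called. The highest in DST had 7 RIP fragments against 1.27 (3.53, 1.68 to 6.80).

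The peaks were set against the exon-class peaks of the same gene in 5373 genes that had both. The median fold per gene was 1.92 after the start and 2.005 in exons, on a median of 4 RIP fragments in either. The peaks after the start had the higher median in 2425 of these genes (45.1%, 43.8 to 46.5). A called exon peak was present in 16 of the 113 genes with a called peak after the start (14.2%) and in 471 of all 5373 (8.77%). Whether these shares differ was not tested, and they are not matched for depth or for exon peaks per gene. Genes with a peak after the start and no other peak in the list numbered 710 (7.33%).

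Gene classes from RefSeq put most of the peaks in mRNA. Protein-coding genes held 11617 of the peaks (85.6%) in 8198 genes, and 195 of these (1.68%) were called. Long non-coding RNA genes held 806 peaks, 16 of them called (1.99%, 1.14 to 3.20), and 424 of the 806 summits lay inside another annotated gene, on peaks without strand. MicroRNA and snoRNA genes held 794, and 14 were called. Since these genes are shorter than the 1 kb range, 575 of the 794 peaks (72.4%) began past the end of the small RNA gene. The summits of 739 (93.1%) lay inside another protein-coding or long non-coding gene. Among the called ones was MIR937, with 10 RIP fragments against 0.634 (6.73), whose summit lay inside SCRIB. The brain cytoplasmic RNA gene BCYRN1 had 23 against 3.80 (4.998, 3.24 to 7.40), with its summit also inside EPCAM-DT.

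Ribosomal protein genes had a peak after the start more often than any other list examined, and a deep one. Of 78 cytosolic ribosomal protein genes, 75 (96.2%, 89.2 to 99.2) had a peak, and the median over genes of the deepest peak was 27 RIP fragments, against 5 over all genes with a peak. The median of the highest fold per gene was 1.92, against 1.94 over all genes. A called peak was present in 7 of the 75 (9.33%), against 2.44% of all genes with a peak. These shares are not matched for depth or for peaks per gene. The ribosomal protein genes held 131 peaks with a median of 26 fragments, against a median of 3 over all peaks after starts. Of peaks after starts on 20 to 30 fragments, 3.23% were called. RPL3 had 21 RIP fragments against 3.80 (4.58, 2.92 to 6.89) and RPLP0 had 31 against 10.1 (2.87, 1.98 to 4.04). RPL27A had 25 against 8.24 (2.81), RPL30 had 30 against 10.1 (2.78), and RPS21 and RPL35 had 29 against 10.8 each (2.55). The RPL27A summit also lay inside another annotated gene, TRIM66, on a peak without strand. Ribosomal protein genes have many processed pseudogenes, so that some of these reads are of uncertain origin.

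The other lists of the translation and energy machinery had deep peaks at ordinary folds, and whether a limit on depth held those folds down was not tested. Translation factors had a peak in 35 of 41 genes with a median deepest peak of 17 fragments, splicing factors in 33 of 40 with 16, proteasome subunits in 24 of 31 with 15.5 and respiratory chain subunits in 27 of 38 with 14. Replication-dependent histone genes, whose mRNAs lack a poly(A) tail, had a peak in 23 of 26 with a median of 18 fragments and the second-lowest median of the highest fold of all lists, 1.63. Most of these histone genes are shorter than 1 kb (H4C14 396 bp, H1-4 787 bp), so the range spans the whole gene. The histone genes with a peak anywhere in the list were also 23, and their share does not describe the 5′ end alone. Called peaks in these lists were EIF4H, an activator of the helicase eIF4A, with 28 against 9.50 (2.76, 1.87 to 3.95), PSMB4, a core proteasome subunit, with 19 against 5.07 (3.30, 2.05 to 5.05), and NDUFA1, a complex I subunit, with 21 against 5.70 (3.28, 2.09 to 4.94). Among the snoRNA host genes, of which 9 of 22 had a peak, NCL, the nucleolar protein nucleolin, was called with 28 against 7.60 (3.37, 2.28 to 4.82). The highest uncalled gene of each list was EIF4G1, the scaffold of the cap complex, for translation factors (3.79), SF3B2 for splicing factors (3.36), SDHC for the respiratory chain (3.11), PSMD3 for the proteasome (2.59), SNHG6 for snoRNA hosts (2.40) and H2BC11 for histones (2.39). Mitochondrial ribosomal proteins had a peak in 46 of 76 genes, chaperones and unfolded protein response genes in 23 of 33 and glycolysis and gluconeogenesis genes in 18 of 27, with none called. Their highest were MRPL2 (4.28), DNAJB1 (2.56) and ENO2 (3.06). Among all genes with a peak 2.44% had a called one. The called genes of each list in this paragraph are too few to be set apart from that share.

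**Figure D5:**
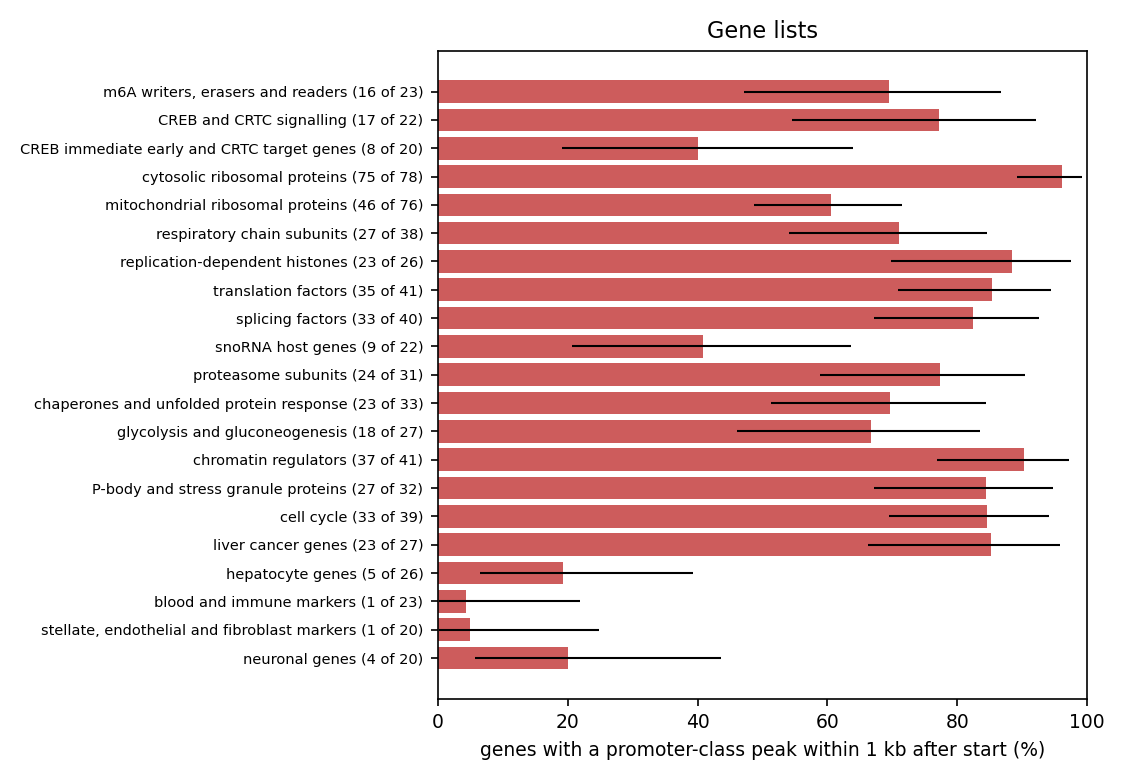
Share of the genes of each list that had a promoter-class peak within 1 kb after start, in percent with exact 95% intervals (x axis), by gene list (rows, with the counts in brackets). Cytosolic ribosomal proteins reach 96.2%, and hepatocyte genes 19.2%.

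Chromatin regulators had a peak in 37 of 41 genes with a median deepest peak of 6 fragments and a median highest fold of 2.40, against 5 fragments and 1.94 over all genes with a peak. Called among them were NSD2, a histone H3 lysine methyltransferase, with 7 against 0.634 (4.90, 2.33 to 9.44; another fragment count also met its values), and SETD1B, the catalytic subunit of a COMPASS complex, with 19 against 4.44 (3.68, 2.29 to 5.64). The demethylase KDM4A reached 3.71 and was not called. Cell cycle genes had a peak in 33 of 39 with a median deepest peak of 9 fragments and a median highest fold of 1.87, with E2F2, an activator of S phase genes, called at 4 against 0.137 (4.40, 1.84 to 9.88) and E2F3 (4.28), CDC25A (3.79) and CDK6 (3.71) not called. Liver cancer genes had a peak in 23 of 27, led by RB1 (3.71), KEAP1 (3.52) and VEGFA (3.06). P-body and stress granule genes had one in 27 of 32, led by DCP1B (3.64), DDX6 (3.45) and PUM2 (3.11). None in these last lists was called. Over all genes with a peak 2.44% had a called one. The called genes of each list in this paragraph are too few to be set apart from that share.

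The transcripts of the proteins under study had ordinary peaks after their starts. CRTC2 had 1, with 5 RIP fragments against an input level of 2.53 (1.70, 0.742 to 3.58), 120 bp after the start (chromosome 1, 153958348 to 153958492). YTHDF2 had 2, with 11 against 6.34 (1.64, 0.885 to 2.82) and 7 against 3.17 (1.92, 0.915 to 3.70). All 3 intervals include 1. The m6A writers, erasers and readers had a peak in 16 of 23 genes and none called, where 2.44% of all genes with a peak had a called one, and 16 genes are too few to be set apart from that share. ZC3H13 and RBM15, parts of the writer complex, reached 2.45 and 2.26, and the reader YTHDF3 and the writer subunit VIRMA 2.21 and 2.14. METTL14, WTAP, FTO and YTHDC1 were among the 7 without a peak after the start.

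CREB and CRTC signalling genes had a peak in 17 of 22 and none called, a number of genes too small to set apart from the 2.44% of all genes with a peak. PDE4D, a cAMP phosphodiesterase, had 4 against 0.216 (4.11, 1.72 to 9.24), ATF1, a CREB family factor, had 9 against 1.90 (3.45), and PRKAA1, a catalytic subunit of AMPK, had 14 against 4.44 (2.76). Of 20 immediate early and CRTC target genes, 8 had a peak and none was called, again a small number against 2.44%, with EGR1 (3.45), DUSP1 (3.06), SALL1 (3.06) and NR4A2 (2.89) the highest. The gluconeogenic targets G6PC1 and PCK1 were without one.

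The RefSeq windows from 250 bases before to 50 after the start allowed a description of the promoters. A window of the same start was found for 9092 of the peaks (67.0%), at 7208 starts. The full cAMP response element TGACGTCA, searched on both strands, was in 3.40% (2.98 to 3.87) of the 6726 protein-coding starts with a peak and in 1.76% (1.56 to 1.98) of the 15472 without, against 1.85% of all 35116 windows. GGGCGG, the GC box, was in 73.0% of starts with a peak, 49.0% of those without and 45.0% of all windows, both strands searched. The GC content differed too, with a median of 66.3% at starts with a peak and 60.3% without, and its part in these motif shares was not tested. A peak also needs RNA, and starts without a peak were not split by whether they were transcribed. The shares therefore do not set RNAs associated with CRTC2 against other expressed RNAs. CCAAT, on both strands, was in 36.3% with a peak, 34.0% without and 34.6% of all windows, and TATAA, on the gene's strand from 50 to 11 bases before the start, in 3.45%, 5.92% and 4.46%. Of the 133 protein-coding starts with a called peak, 1 held the full element (0.752%, 0.0190 to 4.12). Among the CREB lists 2 of 18 genes with a matched window held it, and these sites are shown with the element in capitals.
DUSP1, chr5:172771302-172771331, minus strand: ggcagggcgggTGACGTCAccgccccgtca
PRKAR1A, chr17:68512370-68512399, plus strand: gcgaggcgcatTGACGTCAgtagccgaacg
The element lay with its first base 125 bases before the start in DUSP1 and 49 bases before it in PRKAR1A, the regulatory subunit of protein kinase A, whose peak had 19 RIP fragments (1.90, 1.18 to 2.92). The highest DUSP1 peak of this start had 4 RIP fragments against an input level of 0.634 (3.06, 1.28 to 6.88). A motif match describes letters in a window and not binding.

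A start on C followed by 4 pyrimidines, the form of a terminal oligopyrimidine tract, was found at 39 of 58 ribosomal protein starts with a peak (67.2%, 53.7 to 79.0). It was found at 347 of the 6726 protein-coding starts with a peak (5.16%), 661 of the 15472 without (4.27%) and 4.07% of all windows. Here too the starts without a peak were not split by transcription. At called starts it was 10 of 133 (7.52%, 3.66 to 13.4). Of the ribosomal protein starts printed above, RPLP0, RPL27A and RPL35 have this form and RPL3 does not.

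Markers of the liver and of other cells were checked among the peaks. Of 26 hepatocyte genes, 5 had a peak after the start and 20 had a peak anywhere in the list. CEBPA, a hepatocyte transcription factor, was called with 14 against 2.95 (3.80, 2.19 to 6.21), while ALB and APOB, the albumin and apolipoprotein B genes, had 2 RIP fragments each (2.78 and 2.47) and were not. The 5 genes are too few to be set apart from the 2.44% called over all genes with a peak. APOA1, TTR and SERPINA1 were among the 21 without a peak there. Of 23 blood and immune markers only CD68 had one (1.52), of 20 stellate, endothelial and fibroblast markers only RGS5 (2.29), and of 20 neuronal genes MAP2 (2.83), SYT1 (2.45), TUBB3 (2.25) and DLG4 (1.66). A peak anywhere in the list was present for 10 of the 23, 9 of the 20 and 9 of the 20 genes of these lists, in that order. PTPRC, COL1A1 and PECAM1 were without a peak there. Both libraries came from the HCCLM3 line, so these markers describe its transcripts and not a mixture of cell types. In a pooled library, RNA in fewer cells and less RNA per cell cannot be told apart.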

How the data were processed

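RIP-seq of CRTC2 and its input were measured in HCCLM3 cells, 1 library each. Per the submitters' processing notes, HISAT2, MACS2 and hg38 were used; no version or setting is given in the sources used here. Per the file headers, the deposited list gives each peak's fold, a linear ratio of RIP over control, and its score. The deposited −log10 p and −log10 q were identified by place and value, since their headers were damaged, and the score was not used. The peaks carry no strand.

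RIP fragments and input level at each summit were recovered from the fold (pseudocount 1, a Poisson tail for p, tolerance 0.001). All 13578 peaks met this; 363 fitted more than 1 count, and the closest was taken. The recovery was tested on simulated data. Intervals are exact Poisson at fixed input for folds, Clopper-Pearson for shares and Newcombe for differences (95%), and cover counting error only. Library totals are not given. With 1 library per group no p-value was computed, and nothing has a replicate check. Symbols and sequences came from RefSeq (GRCh38.p14), which matched 9681 of 9684 genes.

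The members and the 21 gene lists were chosen with earlier results of these data known. Genes are named as the 10 of highest fold among called peaks, of highest −log10 q and of most fragments, the 5 with most peaks, up to 4 per list by fold, and CRTC2 and YTHDF2; others were chosen after their values were seen, and some genes the rule names are not reported here. Alternatives changed width, depth, fold, contigs, gene class, distance, peaks per gene and q. Python 3.11.15, pandas 2.3.3, scipy 1.17.1 and matplotlib 3.10.9 were used.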

Additional observations from a re-analysis of the deposited data

How the results depend on the processing

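Of 56 alternative values, 33 stayed close to the reported one, 22 moved and 1 changed sign. With at least 5 RIP fragments there were 5715 peaks in 4908 genes, a called share of 3.03%, a median fold of 1.94, a median of 9 fragments, 12.8% over the start and a difference of 0.11 points from peaks 1 to 3 kb after starts. Keeping only folds of at least 4, which selects on the value described, left 291 peaks in 284 genes, of which 62.2% were called, with a median fold of 4.53, 6 fragments, 21.3% over the start and a difference of -1.17 points. A width of at most 1 kb gave a median fold of 1.85 and 13.8% over the start. A distance of at most 500 bp gave a median fold of 1.89 and 20.8% over the start, since the range is shorter. The highest peak per gene gave 2.44% called, a median fold of 1.94 and 17.3% over the start. A −log10 q of at least 5 left 0.0957% called. Placing peaks by their summits, chosen after seeing the data, gave a median fold of 1.85; peaks with 1 fitting count, also chosen then, gave 1.69% called, within the interval of the reported share, and a median of 3 fragments. Keeping contigs or protein-coding genes alone left the values close to those reported. Merging peaks within 100 bp could join none, since the smallest gap was 152 bp. No paired analysis was possible because there is 1 library per group. Depth is a limit: 26.2% of the peaks rest on 1 fragment, and none of those could be called. Even at the input floor of 0.0298 such a peak had a −log10 p of 3.36 and a −log10 q of 0.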

Other observations

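Genes of zinc finger factors recurred among the called peaks, a group picked out by symbol (ZNF, ZSCAN, ZFP followed by a digit, ZBTB and ZKSCAN) after the values were seen and therefore not tested. Of 327 such genes with a peak after the start, 18 had a called one (5.50%, 3.29 to 8.56), against 2.44% of all genes with a peak. Their 504 peaks had a median of 2 RIP fragments and a median fold of 1.92. ZBTB6 had the highest fold with 5.83 on 6 fragments, then ZFP1 with 5.67 on 5 and ZNF484 with 5.10 on 5. ZFP36L1, which by its symbol falls in the group, binds AU-rich elements in mRNA and had 16 fragments (3.54).

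Wide peaks had their largest shares over starts and from 401 to 800 bp after them. Of the 13578 peaks, 1062 (7.82%) were wider than 1 kb, and 841 of these rested on 1 RIP fragment. They were 413 of the 2146 peaks that cover the start (19.2%), 219 of the 862 peaks from 501 to 600 bp (25.4%), 71 of 698 from 401 to 500 bp (10.2%) and 29 of 4593 from 1 to 100 bp (0.631%). The number of peaks of any width was also higher from 501 to 600 bp (862) than from 401 to 500 bp (698) or from 601 to 700 bp (678). The median input level under the wide peaks from 501 to 600 bp was 0.0354, close to the floor of 0.0298. The cause was not tested.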
